A study of Mus musculus with 2 samples.

Results

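The 10 genes that build purine and pyrimidine nucleotides from ribose described here were measured in donor T cells after allogeneic hematopoietic cell transplantation (allo-HCT): Prps1, Ppat, Gart, Paics, Pfas, Adsl, Atic, Impdh2, Cad and Umps. They were chosen by name from the 32285 genes listed in the count tables, and each of the 10 members has 1 entry there. Donor T cells of C57BL/6 (H-2b) origin, given with T cell-depleted bone marrow to lethally irradiated BALB/c (H-2d) recipients, were sorted from pooled recipient spleens as CD45+, H2kb+, H2kd-, TCRβ+ cells and examined by single-cell RNA-seq on the 10x Genomics Chromium system. There are 2 libraries, 1 titled day 7 and 1 titled day 14, written here as day +7 and day +14, with no replicate of either day, and no untreated or syngeneic library was analysed here. Both library names carry the term PBS, the labels give no donor genotype or age and describe a day +7 sort for both libraries, and the day was taken from the titles.

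The day +7 library kept 7179 of 7355 barcodes and 86745047 unique molecular identifiers (UMIs, each a counted RNA molecule), with a median of 9210 UMIs per cell. The day +14 library kept 7794 of 8043 barcodes and 83808218 UMIs, with a median of 8144. The libraries shared 20 barcodes, 17 of them kept in both, and values without them are given with the limits. With 1 library per day and pooled spleens, no test was possible and no P value is given. Levels are UMIs of a gene per 1000000 UMIs of the summed cells (CPM), and the 95% intervals in brackets cover counting error only, not differences between mice.

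Prps1 makes phosphoribosyl pyrophosphate (PRPP) from ribose 5-phosphate, the product of the pentose phosphate pathway (PPP). The purine ring is built on PRPP in sequence by Ppat, Gart, Pfas, Paics, Adsl and Atic to give IMP, and Impdh2 turns IMP toward GTP. Cad starts the pyrimidine ring and Umps joins it to PRPP to give UMP. T cells that leave rest and divide are known to need both routes, since DNA and RNA synthesis use nucleotides faster than salvage supplies them.

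The start regions of the members were read because the genes moved together across the cell cycle, as described below. RefSeq windows of 250 bases before to 50 bases after the gene start (build GRCm38.p6, the assembly of the mm10 build named in the submitters' processing notes) were held for 9 of the 10 members, all except Pfas. The E-box letters CACGTG, which read the same on both strands and are the letters Myc and its partners are known to bind, were in the windows of 3 members and in 7.15% of all 32851 windows. The letters GCGGGAAA, searched on both strands as a form of the site known for E2F factors, were in the window of 1 member and in 1.07% of all windows. The 5 matches are shown in 30 bases each on the gene's own strand, 5′ to 3′, with the motif in capitals. They lie at chr5:76951087-76951116 for Paics (plus strand), chr1:71557137-71557166 for Atic (plus strand), chr9:108560314-108560343 for Impdh2 (plus strand), and chr5:76951771-76951800 and chr5:76951718-76951747 for Ppat (minus strand).
Paics, E-box: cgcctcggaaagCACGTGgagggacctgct
Atic, E-box: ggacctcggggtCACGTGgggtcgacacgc
Impdh2, E-box: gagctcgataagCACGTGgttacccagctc
Ppat, first E2F-like match: gagcagaccgcGCGGGAAAaaagggcagtg
Ppat, second E2F-like match: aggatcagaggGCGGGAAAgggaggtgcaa

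Paics and Ppat are divergent neighbors whose annotated genes overlap by 272 bases at their 5′ ends in GENCODE M21. The Paics E-box therefore lies in an annotated 5′ UTR of Ppat, and both Ppat matches lie in annotated 5′ UTRs of Paics. The Atic and Impdh2 E-boxes overlap annotated 5′ UTRs of their own genes, since transcript starts upstream of the RefSeq start are annotated. The end of the transcript that was sequenced and the use of strand in counting are not given in the sources used here, so reads in the shared 272 bases cannot be assigned to Paics or Ppat with certainty. The windows of Prps1, Gart, Adsl, Cad and Umps held neither set of letters. A match is a description of the letters and no factor binding was measured.

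Cells were grouped by transcripts that are not members. A T cell had at least 2 UMIs in total of the CD3 subunit genes Cd3d, Cd3e and Cd3g and the T cell receptor constant genes Trac, Trbc1 and Trbc2, and fewer than 50 UMIs per 10000 from neutrophil, macrophage, erythroid and B cell genes, and it was called CD8 or CD4 by UMIs of Cd8a and Cd8b1 or of Cd4 alone. Cycle gates used 30 DNA replication genes (the S phase list, such as Mcm5 and Pcna) and 30 division genes (the mitotic list, such as Top2a and Ccnb1). Cells with 10 or more UMIs per 10000 from a list entered the gate of the higher list, and cells with 3 or fewer from each were called non-cycling. Of 5989 CD8 T cells at day +7, 24.0% were in the S phase gate, 42.0% in the mitotic gate and 8.62% were non-cycling. Of 5991 CD8 T cells at day +14, the shares were 32.9%, 39.3% and 5.17%. These gates are ranges rather than cell types, and 372 CD8 T cells at day +7 and 445 at day +14 lay within 8 to 12 per 10000 on their higher list. The median depth was 12558 and 10228 UMIs in the S phase gate, 11883 and 11660 in the mitotic gate, and 6372.5 and 4756.5 in non-cycling cells, so depth moved with the gates.

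Nucleotide synthesis transcripts were highest in the S phase gate, lower in the mitotic gate and lowest in non-cycling CD8 T cells at both days. At day +7 the summed level of the 10 members was 570 CPM [559, 580] in the S phase gate, 403 CPM [397, 410] in the mitotic gate and 197 CPM [182, 212] in non-cycling cells. At day +14 the summed level was 649 CPM [639, 659], 480 CPM [473, 488] and 211 CPM [189, 235] in the same order. The sum was 2.89-fold higher in the S phase gate than in non-cycling cells at day +7 and 3.07-fold higher at day +14. Impdh2 and Paics held 46.6% of the summed UMIs at day +7 and 43.2% at day +14, so the sum leans on them and the members are given singly below.

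**Figure D1:**
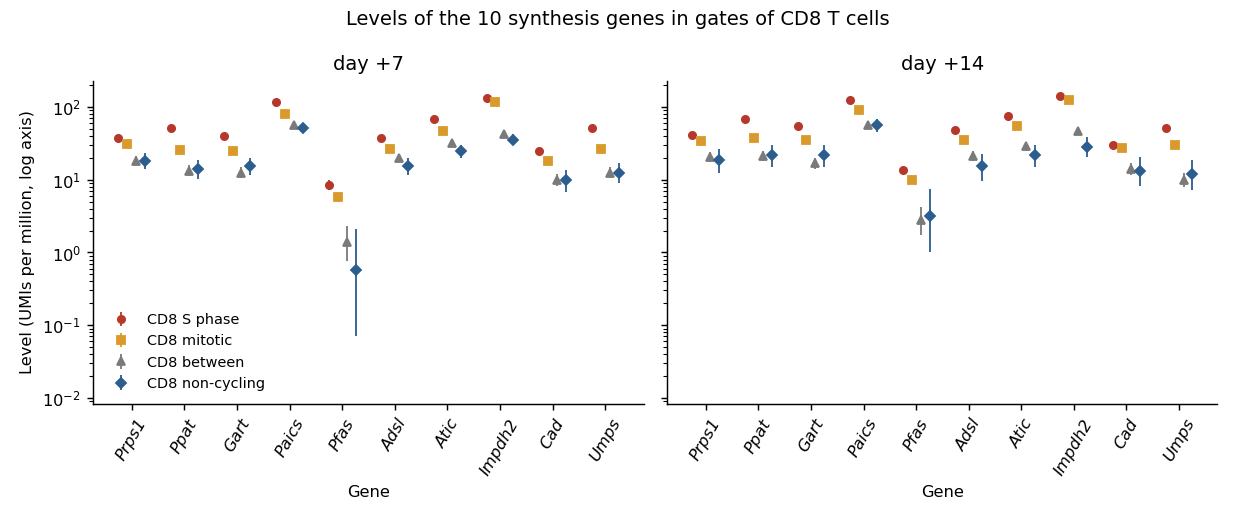
Level of each synthesis gene (CPM, log axis) in the S phase, mitotic and non-cycling gates and in the CD8 T cells between the gates, at day +7 (left) and day +14 (right), with 95% Poisson intervals for counting error. Every gene is higher in the S phase gate than in non-cycling cells in both panels, and the wide interval of Pfas at day +7 rests on 2 UMIs in non-cycling cells.

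Impdh2, which commits IMP to guanine nucleotides, was at 133 CPM in the S phase gate, 119 in the mitotic gate and 35.6 in non-cycling CD8 T cells at day +7. At day +14 Impdh2 was at 143, 126 and 28.6 CPM. Its log2 ratio of S phase over non-cycling cells was 1.90 [1.64, 2.17] at day +7 and 2.33 [1.90, 2.78] at day +14. Both cycling gates lay above non-cycling cells with intervals that did not overlap. Umps, which completes UMP, was at 50.8, 26.5 and 12.5 CPM in the S phase gate, the mitotic gate and non-cycling cells at day +7 and at 51.0, 30.1 and 12.1 CPM at day +14. Its log2 ratio of S phase over non-cycling cells was 2.03 [1.59, 2.50] and 2.08 [1.43, 2.82].

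Ppat, the first committed enzyme of purine synthesis, was at 50.8, 25.4 and 13.9 CPM in the S phase gate, the mitotic gate and non-cycling cells at day +7 and at 67.9, 37.8 and 21.6 CPM at day +14. Its log2 ratio of S phase over non-cycling cells was 1.87 [1.45, 2.32] and 1.65 [1.16, 2.19]. The order of gates was the same for Ppat as for Umps, and all 10 members had it in CD8 T cells at both days. Atic, which closes the purine ring, was at 69.2, 46.2 and 24.6 CPM at day +7 and at 74.7, 54.6 and 21.6 CPM at day +14, with log2 ratios of S phase over non-cycling cells of 1.49 [1.17, 1.82] and 1.79 [1.30, 2.33]. Paics, which carries out a pair of middle steps of the purine pathway, was at 117, 80.6 and 51.0 CPM at day +7 and at 124, 89.9 and 55.9 CPM at day +14. Its log2 ratios were among the smaller ones, 1.20 [0.98, 1.43] and 1.15 [0.85, 1.48].

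Gart, which catalyzes several steps of the purine pathway, was at 40.4, 24.5 and 15.4 CPM at day +7 and at 54.1, 34.9 and 21.6 CPM at day +14 in the same order of gates. Adsl, which splits off fumarate in the purine pathway, was at 37.4, 26.1 and 15.4 CPM at day +7 and at 49.1, 35.1 and 15.2 CPM at day +14. Prps1 was at 37.3, 31.3 and 18.2 CPM at day +7 and at 40.7, 33.9 and 18.4 CPM at day +14. Its log2 ratios of S phase over non-cycling cells, 1.03 [0.66, 1.43] and 1.14 [0.61, 1.73], were the lowest of the 10 members at each day. Cad was at 24.6, 18.2 and 9.85 CPM at day +7 and at 30.2, 27.8 and 13.3 CPM at day +14. Pfas, which adds nitrogen from glutamine, was scarce, with 8.51, 5.75 and 0.579 CPM at day +7 and 13.6, 9.83 and 3.17 CPM at day +14. Pfas had 2 UMIs in non-cycling cells at day +7 and 5 at day +14, so that its log2 ratios of 3.88 [2.002, 6.93] and 2.09 [0.86, 3.73] are loosely bounded. Among the other members, those next to each other in this order had widely overlapping intervals at each day. Single ranks, the lowest place of Prps1 included, are therefore not resolved. Impdh2 lay above Prps1 and Paics at each day with intervals that did not overlap.

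Of the 9 members with a mean of at least 10 CPM, 9 were past a log2 ratio of 0.5 (after 1 CPM was added to each level) in S phase over non-cycling CD8 T cells at day +7, where 24.3% of all 6498 genes tested were past it upward. At day +14, 9 of 9 were past it against 26.1% of all genes. The median log2 ratio of the 9 members was 1.34 at day +7 and 1.61 at day +14, beside medians of 0.083 and 0.062 over all genes tested. For the mitotic gate over the same non-cycling cells, 9 of 9 were past 0.5 at day +7, where 20.5% of all genes were, and 9 of 9 at day +14, where 25.3% were. The median over the 9 members was 0.82 and 1.01 in that comparison. Pfas did not reach 10 CPM on average and is not in these counts.

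**Figure D2:**
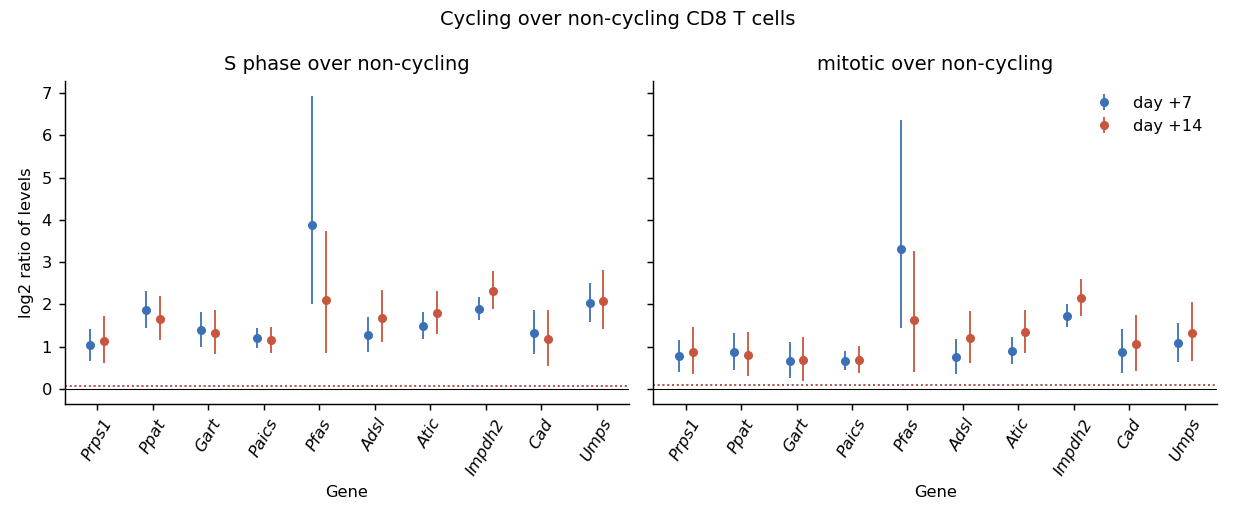
Log2 ratio of levels in S phase (left) and mitotic (right) over non-cycling CD8 T cells for each synthesis gene at day +7 and day +14, with 95% exact binomial intervals for counting error and dotted lines at the median of all genes tested. Each of the 10 genes lies above the dotted lines in both panels, and Impdh2 keeps 1.73 at day +7 and 2.14 at day +14 in the mitotic gate.

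Depth was limited to a common window by taking only cells with 6000 to 15000 UMIs. Within the window the depths of the gates were not matched. The log2 ratio of the summed members in S phase over non-cycling CD8 T cells was then 1.17 [1.03, 1.31] at day +7, with 9 members past 0.5 beside 17.7% of all genes. At day +14 it was 1.17 [0.93, 1.43], with 8 members past 0.5 beside 25.8% of all genes, from 72 non-cycling cells. For the mitotic gate the ratio in this window fell to 0.55 [0.41, 0.69] and 0.57 [0.33, 0.83]. In that gate 2 members at day +7 and 3 at day +14 stayed past 0.5, beside 15.7% and 26.8% of all genes. Impdh2 kept log2 ratios of 1.25 [0.94, 1.57] and 1.17 [0.60, 1.80] in the mitotic gate, whereas Gart, at -0.16 [-0.67, 0.39] and 0.04 [-0.79, 1.01], and Cad, at -0.07 [-0.67, 0.59] and -0.03 [-0.90, 0.99], lay near 0. Most members were thus past 0.5 in the mitotic gate only without this limit on depth, and in the S phase gate with it as well.

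The members differed in how far they fell from the S phase gate to the mitotic gate, 2 gates of similar depth. Ppat was lower in the mitotic gate by a log2 ratio of -1.001 [-1.13, -0.87] at day +7 and -0.85 [-0.95, -0.74] at day +14, and Umps by -0.94 [-1.07, -0.81] and -0.76 [-0.88, -0.64]. Gart followed with -0.72 [-0.86, -0.59] and -0.63 [-0.75, -0.52]. Impdh2 differed by only -0.17 [-0.24, -0.10] and -0.18 [-0.25, -0.12], and Prps1 by -0.25 [-0.39, -0.12] and -0.26 [-0.39, -0.14]. The intervals of Ppat and Umps did not overlap those of Impdh2 and Prps1 at either day. Of the members tested, 5 of 9 at day +7 and 3 of 10 at day +14 were past -0.5, beside 4.03% and 3.14% of all genes, and the median of all genes was near 0 in both.

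The summed level followed the S phase list in steps. Among CD8 T cells at day +7 it was 187 CPM [167, 209] in cells with fewer than 1 UMI of the S phase list per 10000, 247 CPM [238, 257] at 5 to 10, 348 CPM [338, 359] at 10 to 20 and 615 CPM [600, 630] at 40 or more. At day +14 the same groups stood at 200 CPM [172, 232], 267 CPM [255, 279], 375 CPM [364, 387] and 688 CPM [675, 701]. Each step was higher than the one before it at both days. Against the mitotic list the sum was highest at 20 to 40 per 10000, with 556 CPM [545, 567] at day +7 and 669 CPM [655, 682] at day +14, and lower at 40 or more, with 418 CPM [411, 426] and 497 CPM [489, 505]. Median depth also differed between these groups but did not rise at every step. Over the S phase list at day +7 it was 5677 UMIs in the lowest group, 15363 at 20 to 40 and 13722 at 40 or more. At day +14 it was 4492, 14249 and 11648 UMIs in the same groups. The part of depth in the steps was not tested.

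**Figure D3:**
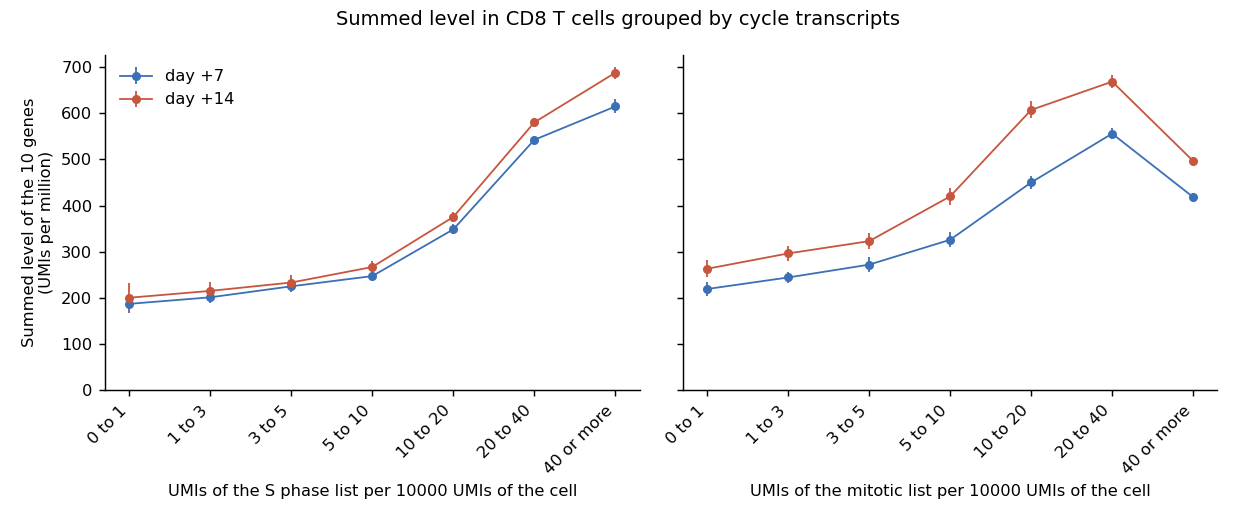
Summed level of the 10 synthesis genes (CPM, axis from 0) in CD8 T cells grouped by their UMIs of the S phase list (left) or the mitotic list (right) per 10000, at each day, with 95% Poisson intervals. The sum rises to 615 and 688 in the top group of the S phase list, whereas it falls from 556 and 669 to 418 and 497 in the top group of the mitotic list.

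Cells with mitotic but few S phase transcripts had a summed level of synthesis transcripts close to that of non-cycling cells, while single members differed. In CD8 T cells with 10 or more UMIs of the mitotic list and fewer than 3 of the S phase list per 10000, the summed members were at 202 CPM [182, 223] in 260 cells at day +7 and 219 CPM [180, 263] in 90 cells at day +14, close to the 197 and 211 CPM of non-cycling cells. Cells with 10 or more of the S phase list and fewer than 3 of the mitotic list were at 375 CPM [344, 408] in 172 cells and 421 CPM [392, 451] in 289 cells. Cells with 10 or more of both were highest, at 520 CPM [513, 527] and 586 CPM [580, 594]. They were also the deepest, with medians of 15128 and 13334 UMIs against 7882 and 5987 in the S phase-only cells. The part of depth in this order was not tested. The depths of the mitotic-only cells, with medians of 6755 and 5093.5 UMIs, were near those of non-cycling cells. At day +7 Gart was at 6.43 CPM [3.32, 11.2] and Umps at 6.96 CPM [3.71, 11.9] in the mitotic-only cells, from 12 and 13 UMIs. Both were below their 15.4 CPM [11.5, 20.1] and 12.5 CPM [9.01, 16.8] in non-cycling cells, with overlapping intervals for Umps. Impdh2 was at 50.9 CPM [41.2, 62.2] in the mitotic-only cells, from 95 UMIs, above its 35.6 CPM [29.6, 42.5] in non-cycling cells. At day +14 Impdh2 was again higher in the mitotic-only cells, at 57.5 CPM [38.8, 82.1] against 28.6 CPM [20.8, 38.2]. Gart was at 15.3 CPM against 21.6 CPM there, and Umps went the other way from day +7, at 19.2 CPM against 12.1 CPM. Those values rest on 8 UMIs of Gart and 10 of Umps in the mitotic-only cells.

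The share of cells with a member's UMI was compared after each cell was thinned to 4000 UMIs, which left out 198 cells at day +7 and 969 at day +14. A UMI of any member was present in 83.4% [81.4, 85.3] of S phase, 69.0% [67.1, 70.8] of mitotic and 52.9% [48.4, 57.4] of non-cycling CD8 T cells at day +7. At day +14 the shares were 85.7% [84.1, 87.3], 77.0% [75.2, 78.7] and 55.2% [48.8, 61.4]. With all UMIs kept, they were 96.8%, 90.3% and 70.1% at day +7 and 95.8%, 93.4% and 65.9% at day +14. Non-cycling barcodes outside the T cell gate, in which neutrophil genes such as S100a8 held the most UMIs of any marker list, are given for comparison. A member was present there in 3 of 30 thinned barcodes at day +7, or 10.0% [2.11, 26.5], and in 3 of 22 at day +14, or 13.6% [2.91, 34.9], with median depths of 9338 and 6802 UMIs before thinning. The summed level in those barcodes was 59.8 CPM at day +7 and 64.5 CPM at day +14, below the 197 and 211 CPM of non-cycling CD8 T cells. Barcodes over the other-lineage limit, cycling or not, were not as low. With neutrophil genes as the highest list, 44 and 77 barcodes had 233 CPM [202, 267] and 280 CPM [245, 319]. With macrophage and monocyte genes highest, 34 and 26 barcodes had 237 CPM [174, 314] and 378 CPM [299, 473]. The 36 and 28 barcodes over the other-lineage limit in which erythroid genes were the highest list had 1009 CPM [941, 1080] and 806 CPM [687, 940], above any T cell gate. Erythroid genes summed to between 7.53 and 50.2 CPM in the CD8 gates, where Cd4 was at 0 by the gate and the T cell genes stood between 5424 and 9635 CPM, and their part in the members' levels was not tested.

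From day +7 to day +14 the summed members went from 432 CPM [428, 437] to 501 CPM [496, 506] over all kept cells, a log2 ratio of 0.21 [0.19, 0.23]. All 10 members were higher at day +14, yet the median over the 9 members tested was 0.20 while that of all 6919 genes tested was 0.18. None of the 9 was past 0.5 upward, where 12.6% of all genes were, and none was past it downward, where 3.19% were. When the libraries were scaled by the median ratio of genes, which lowered each log2 ratio by 0.21, the summed ratio was 0.004. Over all kept cells the summed members thus moved by about as much as the median gene between the 2 libraries. In the T cell gate alone the summed ratio was 0.27 [0.25, 0.29], above the median of 0.18 over all genes tested there. It lay between the lower and upper quartiles of those genes, -0.01 and 0.36. The median ratio used for scaling was 0.22 in that gate.

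Single members lay on both sides of the general shift. Of the 9 tested, 4 had an interval above the median of all genes and 2 one below it, where 39.8% of all genes lay on each side, so a place above or below the median does not set the members apart from other genes. Ppat went from 32.2 CPM [31.0, 33.4] to 45.2 CPM [43.7, 46.6], a log2 ratio of 0.49 [0.42, 0.56], and Gart from 29.3 CPM [28.2, 30.5] to 39.1 CPM [37.8, 40.5], a log2 ratio of 0.42 [0.34, 0.49]. Pfas, from 6.28 CPM to 10.1 CPM, had the highest log2 ratio, 0.68 [0.52, 0.84]. Cad went from 19.8 to 26.0 CPM (0.40 [0.30, 0.49]) and Adsl from 29.5 to 37.5 CPM (0.35 [0.27, 0.43]). In contrast, Impdh2 went from 115 to 120 CPM (0.07 [0.03, 0.11]), Umps from 31.8 to 34.1 CPM (0.10 [0.02, 0.17]), Prps1 from 30.6 to 33.5 CPM (0.13 [0.05, 0.21]) and Paics from 86.8 to 96.2 CPM (0.15 [0.10, 0.19]). Atic, from 51.3 to 59.1 CPM, was at 0.20 [0.14, 0.26]. The lower bounds of the first 5 lay above the median of all genes, 0.18, and above the upper bounds of Impdh2, Umps, Prps1 and Paics. Under the scaling by the median ratio, Impdh2, Umps, Prps1, Paics and Atic turned to values from -0.14 to -0.005, and the first 5 remained above 0.

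Pfas, Ppat, Gart, Adsl and Cad also had the highest day ratios of the 10 members in the CD8 S phase and mitotic gates. In the S phase gate the log2 ratio of day +14 over day +7 was 0.67 [0.40, 0.94] for Pfas, 0.42 [0.31, 0.53] for Ppat, 0.42 [0.29, 0.55] for Gart, 0.40 [0.26, 0.53] for Adsl and 0.30 [0.13, 0.46] for Cad. For the other 5 members it lay between 0.00 for Umps and 0.13 for Prps1. In the mitotic gate it was 0.77 [0.52, 1.03] for Pfas, 0.61 [0.46, 0.75] for Cad, 0.57 [0.45, 0.70] for Ppat, 0.51 [0.38, 0.64] for Gart and 0.42 [0.30, 0.55] for Adsl, and between 0.09 for Impdh2 and 0.24 for Atic among the rest. Of 10 members tested in the S phase gate, 1 was past 0.5, where 10.6% of all genes were. Of 9 tested in the mitotic gate, 2 were, where 12.9% of all genes were. The gates use the same 2 libraries as the comparison over all cells and are not independent of it. The CD4 gates, with far fewer UMIs and wide intervals, did not resolve this order. In the CD4 S phase gate Cad was at 0.57 [-0.14, 1.29] and Gart at 0.49 [-0.01, 1.01]. Pfas was at -0.11 [-1.15, 0.91], Adsl at -0.08 [-0.64, 0.48] and Ppat at 0.11 [-0.37, 0.59], below Prps1 at 0.51 [-0.08, 1.12]. In the CD4 mitotic gate Atic was at 0.57 [0.14, 1.00], the one member with an interval clear of 0. Cad was at 0.64 [-0.09, 1.38] there, Gart at 0.25 [-0.33, 0.84] and Pfas at 0.22 [-1.15, 1.62]. Adsl was at 0.01 [-0.53, 0.55] and Ppat at 0.11 [-0.48, 0.71].

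**Figure D4:**
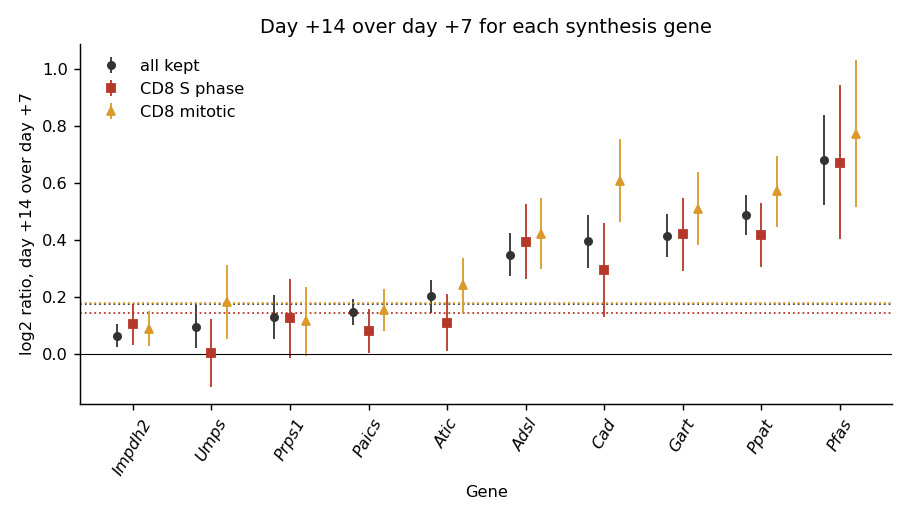
Log2 ratio of day +14 over day +7 for each synthesis gene, ordered by its value over all kept cells, with the ratios in the CD8 S phase and mitotic gates beside it, 95% exact binomial intervals for counting error and dotted lines at the medians of all genes tested. Adsl, Cad, Gart, Ppat and Pfas lie above the dotted lines in each of the 3 sets, and Impdh2, Umps, Prps1 and Paics lie near or below them.

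In non-cycling CD8 T cells the day comparison was not resolved. The summed members had a log2 ratio of 0.10 [-0.09, 0.29] there, and 1 of 9 members, Ppat at 0.63 [-0.04, 1.30], was past 0.5, where 22.6% of all genes were. Gart was at 0.49 [-0.17, 1.14], Adsl at -0.01 [-0.77, 0.71] and Impdh2 at -0.32 [-0.84, 0.19], from 34, 24 and 45 UMIs at day +14. The summed ratio was 0.19 [0.15, 0.22] in the S phase gate and 0.25 [0.22, 0.28] in the mitotic gate, with medians of all genes of 0.15 and 0.18. In cells with 6000 to 15000 UMIs the summed ratio over all kept cells was larger, 0.42 [0.38, 0.45], and Cad (0.75), Gart (0.79) and Ppat (0.69) were past 0.5, 3 of the members tested beside 17.5% of all genes. A larger share of CD8 T cells was in the S phase gate at day +14 than at day +7, 32.9% against 24.0%, and the mean of the summed log2 ratios in the 3 CD8 gates, each given equal weight, was 0.18.

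The summed members in CD4 T cells had the same order of gates as in CD8 T cells. Each of the 10 members was highest in the S phase gate and lowest in non-cycling CD4 T cells at day +7, and 9 of 10 were at day +14. There Impdh2 stood at 146 CPM in the mitotic gate and 139 CPM in the S phase gate. The share of all genes with this order was not counted, and not every order is resolved. For S phase over non-cycling CD4 T cells, Adsl was at 0.56 [-0.30, 1.52] and 0.91 [-0.23, 2.30] at the 2 days. Gart was at 0.89 [-0.06, 1.96] at day +7. The summed members were at 1.34 [1.06, 1.62] and 1.66 [1.31, 2.04]. In the S phase gate the summed members were at 607 CPM [568, 649] in 110 CD4 T cells at day +7, a log2 ratio of CD4 over CD8 of 0.09 [-0.01, 0.19]. At day +14 they were at 638 CPM in 162 CD4 T cells, with a ratio of -0.03 [-0.12, 0.07]. Of 10 members tested at day +7, 1 was past 0.5 upward and none downward, where 7.03% and 5.94% of all genes were, and that member was Pfas at 0.63 [-0.14, 1.31] from 19 UMIs in CD4 T cells. At day +14 none of 10 was past it in either direction, where 10.0% and 5.38% of all genes were. The interval of the sum reaches 0.19 at day +7 and -0.12 at day +14. The day +14 value moved with the weight given to deep cells, to -0.24 for the mean of per-cell CPM and to -0.28 after thinning to 4000 UMIs, and the CD4 cells of this gate were shallower, with a median of 6756.5 UMIs against 10228. Mitotic CD4 T cells had 384 and 465 CPM at the 2 days and non-cycling CD4 T cells 241 and 202 CPM, from 72 and 74 cells. Over the 3 gates and both days, with 10 members in each comparison, 5 ratios of single members had an interval clear of 0. None of these members had one in the same gate at the other day. The share of all genes with such an interval was not counted, so these 5 ratios do not set the members apart from other genes. In the mitotic gate Prps1 was at -0.58 [-1.08, -0.13] for CD4 over CD8 at day +7, and at day +14 Ppat was at -0.45 [-0.89, -0.04] and Impdh2 at 0.21 [0.02, 0.39]. At day +7 Paics was at 0.26 [0.04, 0.46] in the S phase gate and Impdh2 at 0.73 [0.10, 1.32] in non-cycling cells, from 30 UMIs in CD4 T cells.

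Across the 12 groups made by the 2 days, CD4 and CD8 T cells, and the 3 cycle gates, Pearson's r of each member's level with the sum of the other 9 ran from 0.82 for Prps1 and 0.86 for Ppat to 0.96 for Paics and 0.97 for Atic. Among the 3450 genes outside the fixed lists whose highest level reached 50 CPM, the 3 whose level followed the summed members most closely were Siva1 (r = 0.988), Rbmxl1 (0.987) and Nasp (0.986). The groups share libraries and depth, so these correlations are descriptions.

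Around the members, genes of deoxynucleotide synthesis showed larger differences and genes of ribose supply smaller ones. In S phase over non-cycling CD8 T cells, 13.0% of all genes at day +7 and 16.9% at day +14 were past -0.5, and 24.3% and 26.1% past 0.5. There 7 of 8 deoxynucleotide genes were past 0.5 at each day, with medians of 2.79 and 2.99, and 1 was past -0.5 at day +14. Rrm2, a subunit of ribonucleotide reductase, was at 240 CPM in S phase and 6.08 CPM in non-cycling cells at day +7. Dut, which clears dUTP, was at 829 and 129 CPM. Of 9 tested genes that supply ribose and PRPP, 3 at day +7 and 2 at day +14 were past 0.5, with medians of 0.20 and 0.45. Among them Tkt, which links the PPP to glycolysis, had log2 ratios of 0.71 [0.58, 0.85] and 1.00 [0.80, 1.21], while Taldo1 had -0.03 [-0.13, 0.06] and 0.22 [0.07, 0.38] and Pgls -0.13 [-0.24, -0.02] and -0.08 [-0.22, 0.07].

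Of the 7 other purine genes tested, 4 were past 0.5 at day +7 and 5 at day +14, and the most counted of them, Nme2, had log2 ratios of 0.27 [0.22, 0.32] and 0.58 [0.50, 0.66]. Of 3 other pyrimidine genes tested, 1 was past 0.5 at each day, Ctps, which makes CTP, with 2.62 [1.80, 3.58] and 1.95 [1.14, 2.91]. Of 10 salvage genes tested, 8 were past 0.5 and 1 past -0.5 at each day, among them Hprt, which returns hypoxanthine to IMP, at 0.82 [0.67, 0.98] and 0.93 [0.72, 1.14]. Nucleotide breakdown differed in both directions, with 1 of 6 genes past 0.5 and 2 past -0.5 at day +7, and 2 and 1 at day +14. Samhd1, which degrades deoxynucleotides, was at -0.67 [-0.78, -0.55] and -0.71 [-0.88, -0.54]. Among Myc and its partners, 2 of 6 genes tested were past -0.5 at day +7 and 4 of 7 at day +14, when 1 was past 0.5. Mxd4, known as an antagonist of Myc, was at -1.65 [-1.85, -1.43] and -1.88 [-2.10, -1.65]. From day +7 to day +14 over all kept cells, none of the tested genes of the supply, other purine, other pyrimidine, deoxynucleotide and salvage lists was past 0.5 in either direction. Of the breakdown list, 1 of 6 was past it upward, and of Myc and its partners, 3 of 7, with Mga at 0.77 [0.68, 0.87] and Mxd4 at 0.58 [0.52, 0.65]. In that comparison 12.6% of all genes tested were past it upward and 3.19% downward.

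The members' near copies bear on the assignment of their reads. The Prps1 retrogene Prps1l3 had 789 UMIs at day +7 and 719 at day +14 beside 2652 and 2804 of Prps1. How reads that match both were counted was not examined. Prps2, a second PRPP synthetase, had 2139 and 2485 UMIs, and Impdh1, the other IMP dehydrogenase, had 2956 and 2773 beside 9943 and 10057 of Impdh2.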

How the data were processed

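The authors processed reads with Cell Ranger (version 6.1.2 and build mm10 in the submitters' processing notes) and deposited raw UMI counts per gene and barcode, without normalization; gene and barcode lists hold no measurement. Barcodes with 500 to 7500 genes and at most 15% mitochondrial UMIs were kept. UMIs were summed over cells of a gate and divided by their total (CPM), and genes averaging 10 CPM or more over both sides of a comparison were tested for a log2 ratio past 0.5, with 1 CPM added to each side. Intervals are exact Poisson for levels, exact conditional binomial for ratios and Clopper-Pearson for shares; calculations were tested on simulated data. Scrublet in scanpy 1.11.5 called 0 barcodes with its automatic limit, so doublets remain, and removing the 433 and 518 barcodes that scored highest (0.8% per 1000 barcodes) was 1 of the alternatives. Python 3.11.15 with numpy 2.4.6, scipy 1.17.1 and pandas 2.3.3 was used. All 10 members are named; of each other list at most the 3 genes with most UMIs are, with the first 3 of the 5 genes most similar to the summed members, and the others are not reported here. The members and lists were chosen with earlier results of these data known. Day and group come from the titles.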

Additional observations from a re-analysis of the deposited data

How the results depend on the processing

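Of 139 results of the main comparisons under the alternatives, 104 kept their value within the counting interval (or a count within 1.5 times) and 35 moved; none of these 139 turned its direction with an interval clear of 0. Among 617 other results, which are ratios of single members, sums in further gates and shares of all genes, 9 did and are given below. A mitochondrial limit of 5%, an other-lineage limit of 10 per 10000, removal of the highest Scrublet scores and removal of the shared barcodes, which was added after seeing the data, moved none of them. In the values below, S phase and mitotic stand for the log2 ratio of the summed members over non-cycling CD8 T cells at day +7 and day +14. Scaling by the median ratio gave 0.0042 for the day ratio over all kept cells and 0.032 in the CD8 S phase gate, and turned Prps1 (-0.078), Paics (-0.060), Atic (-0.0045), Impdh2 (-0.14) and Umps (-0.11) over all kept cells. The mean of per-cell CPM gave 1.40 and 1.44 for S phase, 0.83 and 0.97 for mitotic, -0.013 and -0.24 for CD4 over CD8 in S phase, and 1 member past 0.5 in the day ratio. Thinning to 4000 UMIs gave 1.27 and 1.31 for S phase, 0.74 and 0.94 for mitotic, -0.020 and -0.28 for CD4 over CD8, a day ratio of 0.31 and 2 members past 0.5. Cells with 6000 to 15000 UMIs gave 1.17 and 1.17 for S phase, 0.55 and 0.57 for mitotic with 2 and 3 members past 0.5, a day ratio of 0.42 with 3 members past 0.5, and 0.28 for the day ratio in the CD8 S phase gate. There Gart (-0.16) and Cad (-0.068 and -0.034) turned in mitotic over non-cycling cells. Cycle limits of 20 and 1 per 10000 gave 1.79 and 1.84 for S phase, 1.26 and 1.36 for mitotic, and 0.12 for CD4 over CD8 at day +14. The T cell gate alone gave a day ratio of 0.27 with 1 member past 0.5, the mean of the 3 CD8 gates gave 0.18 with Impdh2 at -0.041, and no added CPM and no minimum mean gave 1 member past 0.5. The causes of these differences were not tested.

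No paired analysis was possible because each day is 1 library. Non-cycling CD8 T cells set the precision, with 680 UMIs of the members at day +7 and 333 at day +14. Day, library and sort cannot be told apart, and doublets remain in both libraries. A count summed over cells cannot separate fewer expressing cells from less RNA per cell.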
